A study of Mus musculus with 12 samples.

Results

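Exonic circular RNAs of middle span were examined in cultured mouse spermatogonial stem cells (SSCs). They are the back-splice junctions that the deposited lists type as exon and whose start and end lie 2001 to 20000 bases apart on the genome. The union of the 4 SSC lists held 13123 such circRNAs, out of 21646 exonic circRNAs and 29643 circRNAs of every type. The span includes the introns between the outer ends, so it is a distance on the genome and not the length of the circle.

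A circRNA forms when the spliceosome joins the end of a downstream exon back to the start of an upstream exon of the same transcript, which closes the exons between them into a ring. Linear RNA lacks this junction, so a sequencing read across it is the evidence for a circle. RNase R is an exonuclease that digests most linear RNA from its free 3' end and leaves closed circles, and it is used before sequencing to enrich them. Spermatogonial stem cells are the cells that renew themselves and start spermatogenesis in the testis.

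The RNase R group held 2 libraries of cultured SSCs whose RNA was treated with RNase R, and the untreated group held 2 libraries of cultured SSCs without that treatment. Both came from male F1 offspring of a cross of DBA/2 with C57BL6, at a labelled stage of 5 dpp (days after birth). The levels of the host genes were taken from freshly isolated cells of the same cross, with 2 libraries each: primitive type A spermatogonia at 7 dpp (priSG-A), preleptotene spermatocytes at 17 dpp (plpSC), pachytene spermatocytes at 17 dpp (pacSC) and round spermatids at 60 dpp (rST). The labels name no genetic change in any group, and no gene levels of the SSC libraries themselves were used here, so the SSC label could not be checked against gene levels. They do not say that replicates came from separate cultures or animals, so the p-values measure the spread between these libraries.

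The RNase R libraries held 263855 and 560991 back-splice junction reads, against 21754 and 30400 in the untreated libraries. These totals are of junction reads only, and the number of all reads sequenced was not analysed here, so deeper sequencing and enrichment of circles cannot be told apart. Middle-span exonic circRNAs accounted for 126410 and 274750 junction reads after RNase R, and for 8541 and 12571 in the untreated libraries. Nearly every listed circRNA had at least 2 reads, and absence from a list was counted as 0 reads. The files hold junction reads, so more circles per cell and a larger yield of circles in the library cannot be told apart.

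Middle-span circRNAs were the most numerous of the 3 span classes of exonic circRNAs in all 4 libraries. The lists held 5739 and 11772 of them after RNase R, against 1102 and 1563 in the untreated libraries. This was 46.8% (95% interval 45.9 to 47.7) and 46.3% (45.7 to 46.9) of the circRNAs listed after RNase R, against 42.4% (40.5 to 44.3) and 43.7% (42.1 to 45.3) of those listed in untreated cells. Of all junction reads, they took 47.9% (47.7 to 48.1) and 48.98% (48.8 to 49.1) after RNase R, against 39.3% (38.6 to 39.9) and 41.4% (40.8 to 41.9) without it. These are exact binomial intervals, which cover counting error only. The group means were 48.4% ± 0.754 after RNase R and 40.3% ± 1.48 in untreated cells (SD, n = 2 each). Both RNase R libraries lay above both untreated libraries, and a two-sided exact permutation test gave p = 0.333, the smallest value that 2 against 2 libraries allow.

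Most members had few reads. The median was 8 and 6 junction reads per listed member after RNase R, against 4 and 4 in untreated cells, and the highest was 1926 and 3977 after RNase R, against 146 and 206 in untreated cells. At least 100 reads were found for 217 and 446 members after RNase R, against 6 and 8 in untreated cells. The 100 most abundant members of each library held 32.0% and 31.1% of the members' reads after RNase R, against 43.4% and 39.6% in untreated cells. Scaled to the junction-read total of the library with the fewest, 1525 and 1445 members would be expected to keep at least 2 reads after RNase R, against 1102 and 1312 in untreated cells. The groups differed less in this number than in the members listed.

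Sharing between libraries was low for rare members and high for abundant ones. Of the 13123 members, 8226 (62.7%) were listed in 1 library, 3352 in 2, 934 in 3 and 611 (4.66%) in all 4. A single library, RNase R replicate 2, was the sole source of 6913 members (52.7%). The 2 RNase R lists shared 4605 members, which was 80.2% of replicate 1 and 39.1% of replicate 2. The 2 untreated lists shared 655, which was 59.4% of replicate 1 and 41.9% of replicate 2. RNase R replicate 2 contained 90.9% and 90.02% of the members of the 2 untreated lists. The share in all 4 libraries was 4.73% among shorter exonic circRNAs and 5.46% among longer ones, beside 4.66% for the middle span. Sharing also rested on single libraries: without RNase R replicate 1, 14.9% of members were in at least 2 of the lists left, and without RNase R replicate 2, 25.5%, against 37.3% with all 4. The share found in every list left was 9.86% without RNase R replicate 2 and 9.40% without untreated replicate 1.

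**Figure D1:**
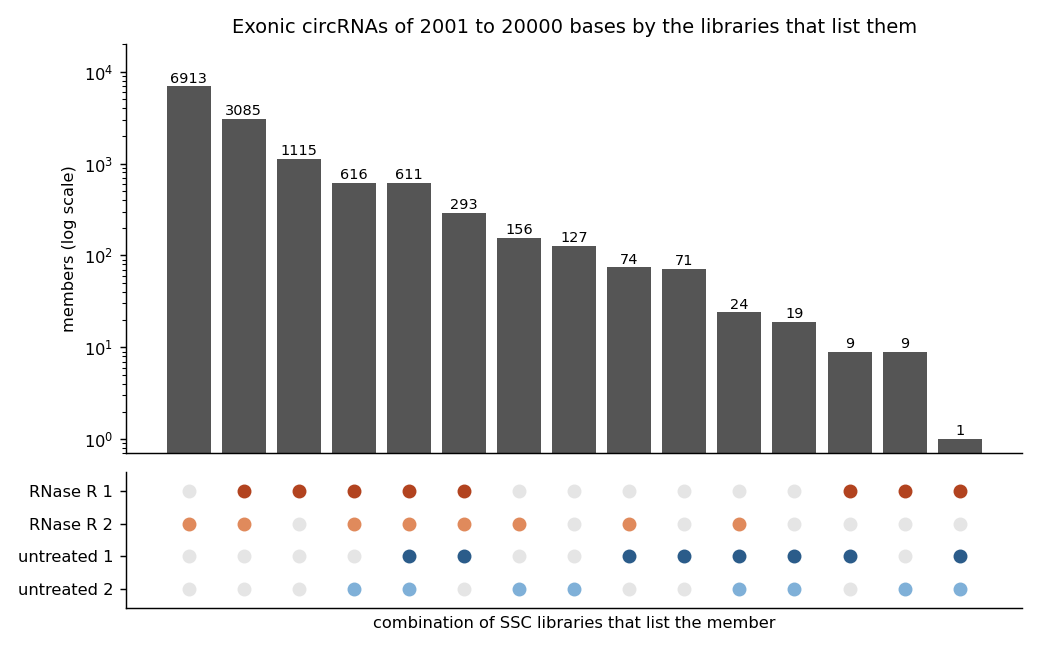
Number of middle-span exonic circRNAs (vertical axis, log scale) for each combination of the 4 SSC libraries, marked by coloured dots under the bar. The highest bar is the 6913 members listed in RNase R replicate 2 alone, and 611 members were in all 4 libraries.

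The 611 members in all 4 libraries carried most of the reads. They held 54.8% and 51.2% of the members' reads after RNase R, against 76.0% and 69.7% in untreated cells. Their median was 58 and 117 reads after RNase R, against 6 and 8 in untreated cells. The chance of being listed again followed the read count in RNase R replicate 2. Of the 4657 members with 2 to 4 reads there, 12.3% were listed in RNase R replicate 1 and 1.91% in at least 1 untreated library. Of the 446 members with 100 reads or more, 98.2% were listed in RNase R replicate 1 and 95.5% in at least 1 untreated library.

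**Figure D2:**
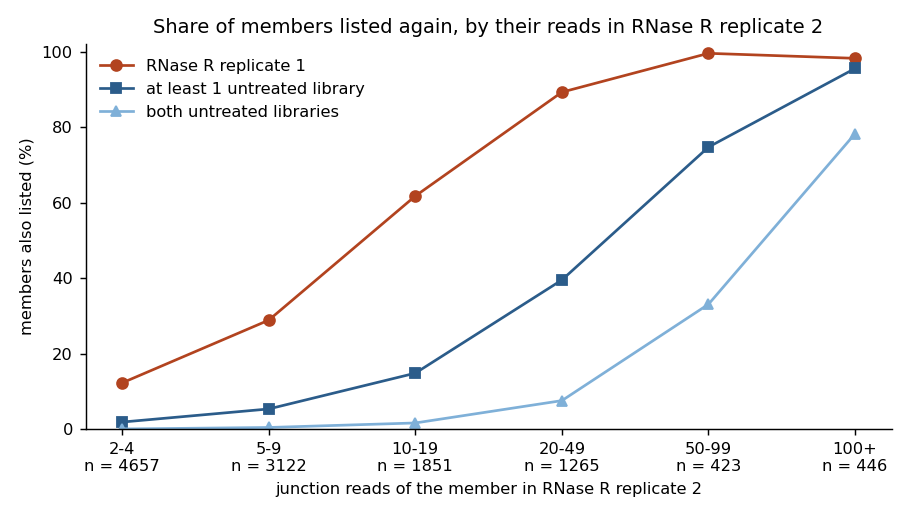
Percentage of members listed again in RNase R replicate 1, in at least 1 untreated library and in both untreated libraries (vertical axis), by junction reads in RNase R replicate 2 (horizontal axis, number of members under each class). All 3 shares are low for members of 2 to 4 reads, and the share in at least 1 untreated library reaches 95.5% at 100 reads or more.

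The most abundant member in all 4 libraries lay in Cnot6l, a deadenylase of the CCR4-NOT complex that shortens mRNA tails, at chr5:96557962-96563151 (mm9). It had 1926 and 3977 junction reads after RNase R, against 111 and 181 in untreated cells. In CPM, which scales each count to the library's total of junction reads, this was 7194 ± 149 after RNase R and 5528 ± 602 in untreated cells (SD, n = 2 each), with no overlap between groups. The leading member of Epb4.1l5, a FERM-domain protein needed for cell migration in the gastrula, lay at chr1:121464373-121475654. It had 1329 and 3878 reads after RNase R, against 125 and 206 in untreated cells, and the groups overlapped in CPM.

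Of the 8 most abundant members, 2 lay in genes of transcription and chromatin. The member of Zfp148, a zinc-finger transcription factor, at chr16:33421407-33435060, had 1536 and 3229 reads after RNase R, against 110 and 143 in untreated cells. Phf21a encodes a PHD-finger protein of a histone demethylase complex. Its member at chr2:92054206-92070881 had 753 and 1937 reads after RNase R, against 45 and 77 in untreated cells. In CPM both were higher in each RNase R library than in each untreated one, and neither passed the test described below (adjusted p = 0.11 and 0.14, edgeR).

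Among regulators of RNA and translation, Gigyf2, a partner of the cap-binding repressor 4EHP, had 1376 and 3484 reads after RNase R, against 86 and 150 in untreated cells, at chr1:89260679-89276583. The member of Rod1, a splicing regulator of the polypyrimidine-tract-binding family, at chr4:59527146-59537348, had 790 and 1963 reads after RNase R, against 48 and 98 in untreated cells. In CPM the groups overlapped for Rod1 and not for Gigyf2. The member of Rasa2, which switches off Ras by raising its GTPase activity, at chr9:96492369-96511918, had 1596 and 2165 reads after RNase R, against 109 and 139 in untreated cells. Tmeff1 encodes a membrane protein with follistatin-like and EGF-like domains. Its member at chr4:48617453-48630203 had 1004 and 1415 reads after RNase R, against 40 and 45 in untreated cells. All 8 were present in every library, as their rule required.

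**Figure D3:**
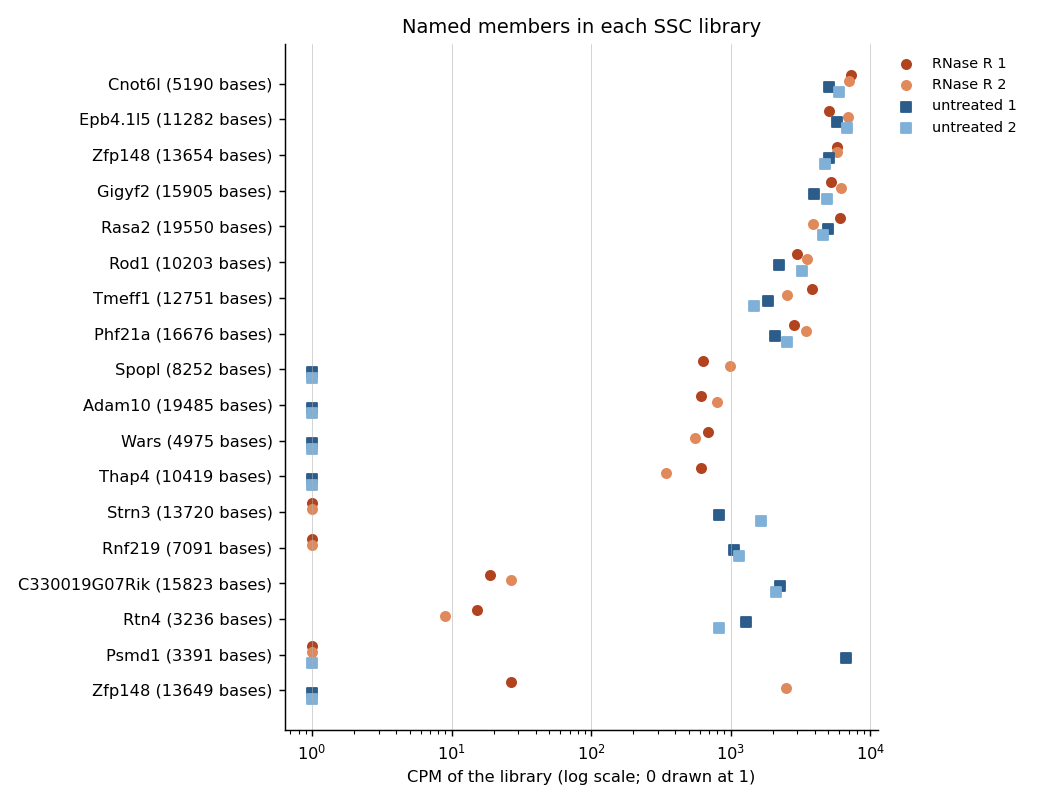
Junction reads in CPM of the library's junction reads (horizontal axis, log scale, 0 drawn at 1) for each named member, with circles for the RNase R libraries and squares for the untreated libraries. The 8 upper members are present in all 4 libraries, and the lower ones are at 0 or far lower in one of the groups.

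Members spanned 2002 to 19998 bases with a median of 7596 (quartiles 4431 and 12148). By span, in classes of unequal width, 3967 members spanned 2001 to 5000 bases, 4512 spanned 5001 to 10000, 2837 spanned 10001 to 15000 and 1807 spanned 15001 to 20000. The shortest of these classes took 28.0% and 26.01% of the members' reads after RNase R, against 25.1% and 22.4% in untreated cells. The longest took 15.6% and 17.1% after RNase R, against 18.9% and 18.9% in untreated cells. The median span of listed members was 7414 and 7662 bases after RNase R, against 8489 and 8383 in untreated cells. Both RNase R libraries had a shorter median than both untreated libraries. The difference was not tested, since an exact permutation test of 2 against 2 libraries cannot go below p = 0.333.

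The same gradient was seen among members present in all 4 libraries. Each of these had to be listed in the untreated libraries, which have the fewest junction reads. The median log2 ratio of RNase R over untreated CPM was -0.11 for the 159 members of 2001 to 5000 bases. It was -0.25 for 202 members of 5001 to 10000 bases, -0.36 for 147 of 10001 to 15000 and -0.43 for 103 of 15001 to 20000. Among exonic circRNAs outside the class it was -0.30 for shorter ones and -0.50 for longer ones. The gradient thus did not extend to spans under 2001 bases. Over the 611 members the median log2 ratio was -0.28, against -0.34 over all 1195 circRNAs in all 4 libraries. In 105 of the 611 (17.2%) both RNase R libraries lay above both untreated ones, beside 17.1% of all 1195. In 228 (37.3%) both lay below, beside 41.0%. The members were thus near the background in the higher direction and somewhat under it in the lower one. The 1195 include the 611 members, which draws these shares together. Both lay below in 36.5% of shorter exonic circRNAs, 47.9% of longer ones, 39.4% of intronic and 55.8% of intergenic circRNAs.

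The circRNAs nearest the bounds of the span class had low to moderate reads. Just inside the lower bound, members of Adipor1 and Mtmr12 spanned 2002 bases, with 48 and 60 reads for Adipor1 and 14 and 23 for Mtmr12 after RNase R, against 0 and 3 for Adipor1 and none for Mtmr12 in untreated cells. Just outside, circRNAs of Furin and 2010111I01Rik spanned 2000 and 1999 bases, with 52 and 149 reads for Furin and 6 and 17 for 2010111I01Rik after RNase R, against 0 and 12 for Furin and none for 2010111I01Rik in untreated cells. Nptn and Fam53b held the members nearest the upper bound, at 19998 and 19997 bases. Ptpn2 and Atp9a held the exonic circRNAs just beyond it, at 20005 and 20011 bases.

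Almost every member lay inside a single gene. The mm9 locus of 1 gene contained 13070 members (99.6%), 49 lay in several loci and 4 in none. They came from 4667 host genes, 20.7% of the 22552 gene symbols. Few members touched an outer end of a locus: 19 (0.145%) started at its first base or ended at its last base. This was 0.238% among shorter exonic circRNAs and 0.426% among longer ones. The median member covered 11.5% of its host locus, and the host loci had a median of 50610 bases, against 14561 bases over all genes. Chromosome X held 253 members, or 25.5 per 100 genes, and the other chromosomes apart from Y held 35.6 (chromosome 7) to 79.0 (chromosome 12) per 100 genes.

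Many hosts gave several members that share a splice site. There were 1901 hosts of exactly 1 member (40.7%), 825 of 5 or more and 137 of 10 or more. Of all members, 7801 (59.4%) shared their start or their end with another member. The most used ends each served 7 members, among them a start in Papola, the nuclear poly(A) polymerase, and an end in Sec31a, a coat protein of vesicles leaving the endoplasmic reticulum. In hosts of 5 or more members, the leading member held a median of 47.9% of the host's member CPM after RNase R (quartiles 37.0% and 65.0%). Of members listed in at least 2 libraries alone, 5 genes hosted 10 or more, so most of the long lists per gene rested on circRNAs seen in 1 library.

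The 6 genes with the most members were not those with the most reads. Birc6, a giant ubiquitin-conjugating enzyme that blocks apoptosis, hosted 19 members with 44 and 130 reads in all after RNase R, against 2 and 3 in untreated cells. Trim37, a ubiquitin ligase that limits centriole assembly, also hosted 19, with 134 and 290 reads after RNase R, against 7 and 8 in untreated cells. Depdc5, a subunit of the GATOR1 complex that restrains mTORC1, hosted 18, with 55 and 135 reads after RNase R, against 7 and 8 in untreated cells. None of the members of these 3 genes was in all 4 libraries.

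Nbas, Rab11fip3 and Smarcc1 hosted 17 members each. Nbas, part of a complex that tethers vesicles at the endoplasmic reticulum, had 78 and 134 reads after RNase R and no read in untreated cells. Smarcc1, a core subunit of BAF chromatin remodelling complexes, had 74 and 182 reads after RNase R, against 3 and 13 in untreated cells. Rab11fip3, an effector of Rab11 in recycling endosomes, had the most reads of the 6, with 544 and 614 after RNase R, against 11 and 22 in untreated cells, and 2 of its members were in all 4 libraries. A single member of a gene such as Cnot6l had more reads than all 17 members of Rab11fip3.

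**Figure D4:**
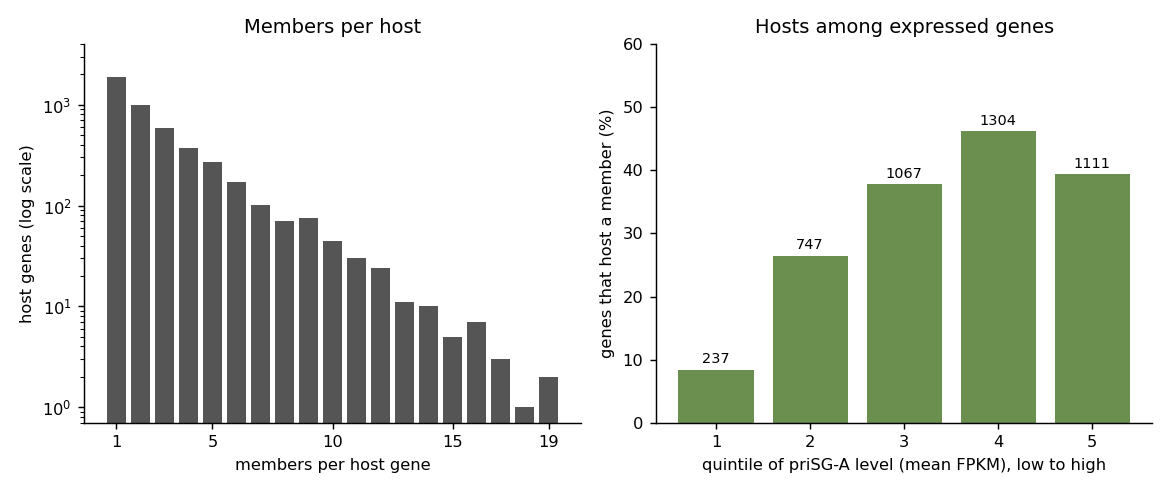
Left, number of host genes (log scale) by the number of middle-span circRNAs they host. Right, percentage of expressed genes that host a member in each quintile of the mean priSG-A FPKM, low to high, with the number of hosts above each bar. The share of hosts is 8.40% in the lowest quintile and 46.2% in the fourth.

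Hosts were mostly genes expressed in germ cells. The filter for expression (2 or more of the 8 germ cell libraries at 1 FPKM or above) was passed by 4466 of the 4667 hosts (95.7%), against 53.9% of genes with no member. Over the quintiles of the priSG-A level, low to high, 8.40%, 26.5%, 37.8%, 46.2% and 39.4% of genes hosted a member, so the highest quintile held fewer hosts than the fourth. Within hosts, the priSG-A level and the members' CPM were weakly related (Spearman rho 0.10 and Pearson r 0.09 across 4466 hosts). These are different cells from the SSCs, and hosts are not independent replicates.

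Lists of genes, chosen with earlier results of these data known, were looked up among the hosts. Of 62 measured genes on the list of chromatin and histone modification, 53 hosted 271 members, 19 of them in all 4 libraries. Setd3, which methylates actin, hosted 1 member with 195 and 470 reads after RNase R, against 19 and 25 in untreated cells. The leading member of Asxl2, a Polycomb-associated protein, had 406 and 722 reads after RNase R, against 25 and 41 in untreated cells. Ehmt1, an H3K9 methyltransferase, hosted 16 members, and its leading one had 205 and 230 reads after RNase R, against 4 and 10 in untreated cells. Of all gene symbols, 20.7% hosted a member, beside 31.6% of expressed genes, and the counts for this and the other lists are descriptions without a test. The counts take no account of locus length, and hosts had longer loci than all genes (median 50610 against 14561 bases).

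Ubiquitin ligases and proteases hosted the most members of any list, with 48 of 57 genes and 295 members. Ubr3, a ligase of the N-degron family, hosted 16, led by one with 138 and 327 reads after RNase R, against 4 and 9 in untreated cells. Nedd4, a HECT-type ligase of membrane proteins, hosted 6, led by one with 146 and 243 reads after RNase R, against 0 and 11 in untreated cells. Genes of RNA binding, splicing and decay held 54 hosts of 66 and 209 members. Behind Cnot6l, the leading member of Pum2, a translational repressor of the PUF family, had 511 and 585 reads after RNase R, against 10 and 17 in untreated cells. In Cpsf6, a subunit of the 3' end cleavage factor, the leading member had 147 and 364 reads after RNase R, against 25 and 35 in untreated cells.

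The list of spermatogonial and stem cell regulators held 20 hosts of 43 measured genes (46.5%, beside 20.7% of all gene symbols) and 45 members. Of the 43 genes, 38 passed the filter for expression, and 31.6% of all expressed genes were hosts. Gfra1, the co-receptor for GDNF on spermatogonial stem cells, hosted 1 member with 222 and 357 reads after RNase R, against 8 and 16 in untreated cells. Dmrt1, a transcription factor that holds spermatogonia back from meiosis, hosted 1 member with 110 and 280 reads after RNase R, against 13 and 18 in untreated cells. Taf4b, a TFIID subunit of germ cells, hosted 11, led by one with 40 and 45 reads after RNase R, against 4 and 0 in untreated cells.

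Genes of DNA repair, cohesin and meiosis held 38 hosts of 51 measured genes and 159 members. Tex11, an X-linked gene of meiotic crossover formation, had the leading member on this list, with 165 and 214 reads after RNase R, against 11 and 17 in untreated cells. Uimc1 and Trp53bp1, which act at DNA double-strand breaks, followed with leading members of 45 and 76 reads for Uimc1 and 28 and 60 for Trp53bp1 after RNase R, against 0 and 9 for Uimc1 and 5 and 7 for Trp53bp1 in untreated cells.

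The cell cycle list held 50 hosts of 64 genes and 185 members. Bub1b, a spindle checkpoint kinase, had a member of 236 and 372 reads after RNase R, against 7 and 18 in untreated cells. Cdk8, the kinase of the Mediator complex, had one of 168 and 357 reads after RNase R, against 8 and 9 in untreated cells. Casc5, a kinetochore scaffold, hosted 10, led by one of 61 and 146 reads after RNase R, against 3 and 9 in untreated cells. Of 44 genes with circRNAs described in other tissues, 30 hosted 121 members, 15 of them in all 4 libraries, and Zfp148, Phf21a and Tmeff1 led that list.

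Markers of other testis cells were also looked up among the hosts. Of 7 markers of undifferentiated spermatogonia 5 hosted a member, and of 7 meiotic prophase markers 3 did. None of the 5 measured Sertoli cell markers, 5 Leydig cell, 5 macrophage, 4 erythroid or 6 round spermatid markers hosted one. The share of hosts was 20.7% over all gene symbols and 31.6% over expressed genes. A gene whose locus is shorter than the lowest span cannot host a member, and 19231 of the 22552 gene symbols had a locus at least that long. The locus lengths of the markers were not taken into account, and the lists are short. These counts therefore cannot decide which cells were present.

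RNase R and untreated libraries were compared member by member with edgeR's quasi-likelihood test, fitted to all 9976 circRNAs listed in at least 2 libraries and scaled by TMM, with a call at a Benjamini-Hochberg adjusted p under 0.05. Few members were called. Of the 4897 members that passed the filter, 25 (0.511%) were higher after RNase R, beside 0.431% of all circRNAs tested, and 29 (0.592%) were lower, beside 1.35%. In either direction 1.78% of all tested circRNAs were called. At an unadjusted p under 0.05, 890 members were higher and 107 lower, beside 1720 (17.2%) and 363 (3.64%) of all 9976. With junction-read totals in place of TMM these were 277 higher and 242 lower, beside 5.38% and 6.98% of all. With relative log expression factors they were 469 higher and 160 lower, beside 9.18% and 5.11% of all. Of the tested members, 3085 (63.0%) had no read in either untreated library and so passed the filter through RNase R alone, and 19 had no read in either RNase R library and passed through the untreated group alone. For both kinds the filter fixed the direction, so their calls are given as a description.

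The balance of calls turned on how the libraries were scaled. With junction-read totals in place of TMM, 17 members were higher after RNase R (0.347%, beside 0.331% of all tested) and 73 lower (1.49%, beside 2.92%). With TMM there were 25 higher and 29 lower. The median log2 change over circRNAs in all 4 libraries was 0.46 with TMM and -0.34 with totals, and over the 611 members it was 0.53 with TMM and -0.25 with totals. Leaving out 1 library moved the counts further. Without RNase R replicate 1 there were 5 higher (0.279%, beside 0.243% of all tested) and 8 lower (0.446%, beside 1.78%). Without RNase R replicate 2 there were 13 higher (0.822%, beside 0.718%) and 14 lower (0.885%, beside 1.93%). Without untreated replicate 1 there were 213 higher (4.44%, beside 4.24%) and 36 lower (0.751%, beside 1.26%). Without untreated replicate 2 there were 159 higher (3.37%, beside 3.33%) and 42 lower (0.891%, beside 1.51%). The shares of members called higher were near those of all tested circRNAs in each. With TMM and all libraries, 19 of the 25 had no untreated read. The filter fixed the direction of these, so the shares are a description and decide nothing about the members.

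**Figure D5:**
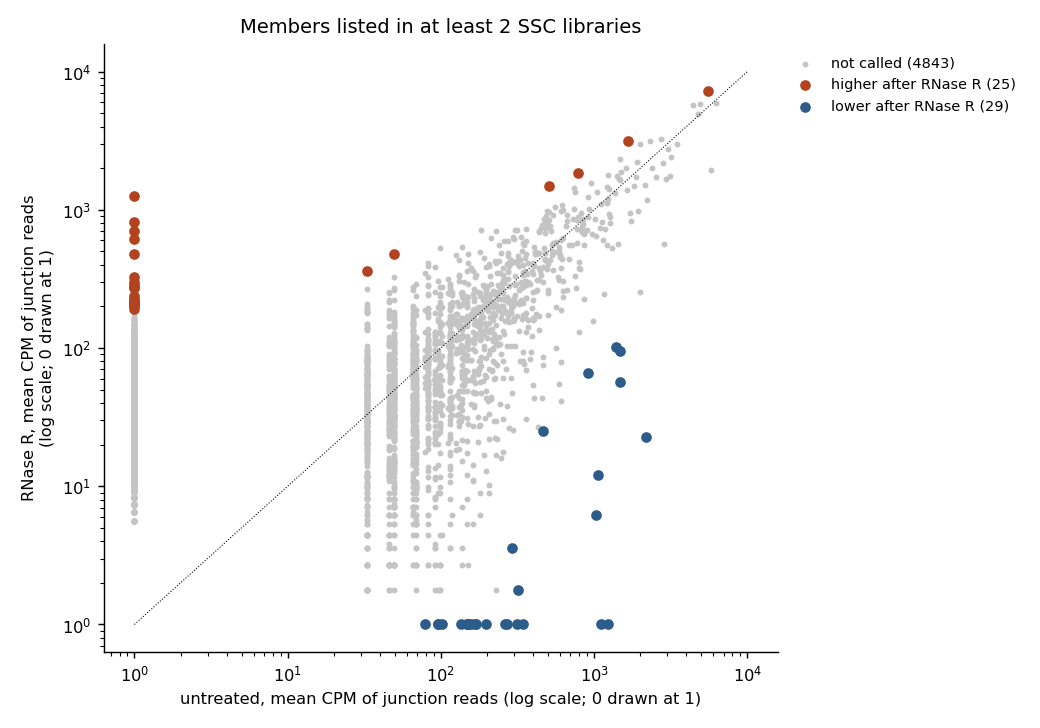
Mean CPM after RNase R (vertical axis) against untreated cells (horizontal axis) for the 4897 members in at least 2 libraries, both on log scales with 0 drawn at 1. Red points are the 25 members called higher after RNase R, of which 19 have no untreated read, and blue points are the 29 called lower, of which 19 have no RNase R read.

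The 25 members called higher came from 25 different genes, and 19 of them had no read in either untreated library. Spopl, an adaptor of CUL3 ubiquitin ligases, had the smallest p, with 168 and 552 reads after RNase R and none in untreated cells (adjusted p = 0.000747, edgeR), at chr2:23392848-23401099. Adam10, a membrane metalloprotease that sheds receptors and ligands, had 161 and 450 reads after RNase R and none in untreated cells (adjusted p = 0.0011, edgeR), at chr9:70551094-70570578. Thap4, a THAP-domain protein, had 163 and 194 reads after RNase R and none in untreated cells (adjusted p = 0.00465, edgeR), at chr1:95611475-95621893. These 3 passed the filter through the RNase R libraries alone, so neither RNase R library could be left out, and no fold is given because the untreated libraries were at 0.

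Wars, the tryptophanyl-tRNA synthetase, held the other of the 4 higher calls of smallest p, at chr12:110101009-110105983. It had 180 and 309 reads after RNase R and none in untreated cells (adjusted p = 0.00163, edgeR). This member too passed the filter through the RNase R libraries alone, which fixed its direction. A second Wars member lay 4 bases away at both ends, with 401 and 670 reads after RNase R, against 19 and 19 in untreated cells, and did not pass the test (adjusted p = 0.142, edgeR). Of the members with reads in both groups, Tmeff1 averaged 3164 ± 907 CPM after RNase R and 1660 ± 253 in untreated cells (SD, n = 2 each; log2 change 1.69 ± 0.40 SE, adjusted p = 0.0284, edgeR). Its groups did not overlap. The Cnot6l member passed narrowly, with a log2 change of 1.16 ± 0.29 (SE, adjusted p = 0.0449, edgeR). In all, 4 members called higher were in all 4 libraries, and the others of these lay in Pum2 and Ubac2. Their log2 changes were 2.27 ± 0.54 for Pum2 and 2.02 ± 0.48 for Ubac2 (SE, adjusted p = 0.0314 and 0.0319, edgeR). With junction-read totals the log2 change was 0.38 for Cnot6l and 0.93 for Tmeff1, and neither was called. The Cnot6l call was also lost with DESeq2, with no filter, with at least 10 reads in 2 libraries, without each of the 4 libraries in turn and with near copies joined. The Tmeff1 call was also lost with DESeq2, with no filter, with at least 10 reads in 2 libraries, without RNase R replicate 1 and without untreated replicate 2.

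The members called lower after RNase R came from 27 genes, and 19 of the 29 had no read in either RNase R library. Strn3, a regulatory subunit of protein phosphatase PP2A in striatin complexes, had no read after RNase R and 18 and 50 in untreated cells (adjusted p = 7.1e-05, edgeR), at chr12:52748981-52762700. A second Strn3 member with the same end was also called, with no read after RNase R and 5 and 9 in untreated cells. Rnf219, a RING-finger protein, had no read after RNase R and 23 and 35 in untreated cells (adjusted p = 7.1e-05, edgeR), at chr14:104902564-104909654. It was the sole member of its gene. These 3 passed the filter through the untreated libraries alone, and neither untreated library could be left out.

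Some called members kept a few reads after RNase R. The member of C330019G07Rik at chr5:33162515-33178337 had 5 and 15 reads after RNase R, against 49 and 64 in untreated cells, or 22.8 ± 5.51 CPM after RNase R and 2179 ± 104 CPM in untreated cells (SD, n = 2 each; log2 change -5.69 ± 0.68 SE, adjusted p = 0.000102, edgeR). Another member that begins at the same base and spans 2273 bases had 83 and 152 reads after RNase R, against 5 and 6 in untreated cells (log2 change 1.23 ± 0.73 SE, adjusted p = 0.234, edgeR). The 2 members of this start thus had opposite orders of abundance in the groups. Rtn4, a reticulon that shapes the endoplasmic reticulum, had 4 and 5 reads after RNase R, against 28 and 25 in untreated cells (log2 change -5.66 ± 0.80 SE, adjusted p = 0.000407, edgeR), at chr11:29605535-29608770. The calls on C330019G07Rik and Rtn4, which had reads in all 4 libraries, held in every alternative that was run, with each library left out in turn among them.

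Some of the lower calls lay in germline genes. These were picked after their values were seen and were not tested as a group. No member of the germline hosts Gfra1, Dmrt1, Taf4b and Tex11 was called lower. Sycp1, which builds the transverse filaments of the synaptonemal complex, had 2 called members from the same start, with no read after RNase R, against 5 and 12 reads for the one and 3 and 2 for the other in untreated cells. Another Sycp1 member from that start, spanning 4227 bases, had 5 and 7 reads after RNase R and none in untreated cells. Rnf17, a Tudor-domain protein of male germ cells, had 0 and 7 reads after RNase R, against 26 and 26 in untreated cells. Smc1b, a meiotic cohesin subunit, had no read after RNase R and 3 and 5 in untreated cells. The called members of Sycp1 and Smc1b passed the filter through the untreated libraries alone, which fixed their direction.

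In all, 217 members (1.65%) had no RNase R read, and the 19 of these that were in both untreated libraries are the 19 called lower without a read after RNase R. All 19 that could pass the filter this way were called, so the calls say no more than their presence in 1 group. The least of them, in Erc1, a scaffold protein of the presynaptic active zone and cell cortex, had 2 and 2 reads in untreated cells. The member with the most untreated reads among the 217 was in Psmd1, a subunit of the regulatory particle of the proteasome, at chr1:88030213-88033603, with no read in the RNase R libraries and 146 and 0 reads in untreated cells. It was the most abundant member of untreated replicate 1 and was absent from untreated replicate 2, so it was listed in 1 library and not tested.

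A number of members lay within 10 bases of a more abundant one at both ends. There were 110 such members (0.838%). In 49 of them the offsets at the start and at the end added up to 4 bases. RNase R replicate 2 listed 80 of them, and 63 were found there alone. In that library they took 7189 reads, or 2.62% of the members' reads, against 0.558% in RNase R replicate 1 and 0.258% and 0.549% in the untreated libraries. In Gigyf2 a copy ending 4 bases earlier had 0 and 2116 reads after RNase R and none in untreated cells, beside the 1376 and 3484 of the leading member after RNase R. In Zfp148 a copy starting 5 bases later had 7 and 1405 reads after RNase R and none in untreated cells (adjusted p = 0.0182, edgeR). It passed the filter through the RNase R libraries alone, which fixed its direction. Nearly all its reads came from 1 library, DESeq2 did not call it, and it failed the filter of at least 10 reads in 2 libraries.

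Of the 25 members called higher, 4 had a tested copy within 10 bases, in Wars, Mad1l1, Mbtd1 and Zfp148. None of the 29 called lower had one. Starts and ends within 10 bases were also joined, a choice made after seeing the data. Then 22 members were higher (0.449%, beside 0.411% of all tested) and 29 lower (0.592%, beside 1.36%). The leading Gigyf2 member then passed the test with a log2 change of 1.60. Joining raised the share of members in at least 2 libraries to 37.6%, against 37.3% without joining.

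Levels of the host genes were followed over the 4 stages with limma on log2(FPKM + 1). In plpSC against priSG-A, 740 of 4466 tested hosts were higher in plpSC (16.6%, beside 24.4% of all genes tested) and 2000 were lower (44.8%, beside 41.3%). In pacSC against plpSC, 140 hosts were higher in pacSC (3.13%, beside 4.22%) and 1013 lower (22.7%, beside 21.6%). In rST against pacSC, 535 were higher in rST (11.98%, beside 17.7%) and 898 lower (20.1%, beside 16.7%). Median log2 changes of hosts over the 3 steps were -0.49, -0.29 and -0.13, beside -0.35, -0.25 and -0.03 for all genes. Centring each library on its median turned the second of these to 0.11 for hosts and 0.15 for all genes. It gave 348 hosts higher (7.79%, beside 9.62% of all genes) and 409 lower (9.16%, beside 8.78%).

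These counts depended on single libraries. Medians are given here, because leaving out 1 library leaves 1 in its group. In plpSC against priSG-A the median log2 change of hosts was -0.48 without priSG-A replicate 1, beside -0.35 for all genes. Without priSG-A replicate 2 it was -0.50, beside -0.37. Without plpSC replicate 1 it was -0.35, beside -0.26, and without plpSC replicate 2 -0.67, beside -0.45. In pacSC against plpSC the median of hosts was -0.36 without plpSC replicate 1, beside -0.23 for all genes. Without plpSC replicate 2 it was -0.25, beside -0.27. Without pacSC replicate 1 it was -0.29, beside -0.23, and without pacSC replicate 2 -0.29, beside -0.30. In rST against pacSC the median of hosts was -0.11 without pacSC replicate 1, beside -0.02 for all genes. Without pacSC replicate 2 it was -0.14, beside -0.02. Without rST replicate 1 it was -0.17, beside -0.07, and without rST replicate 2 -0.09, beside 0.00. Calls in that step fell away without rST replicate 2, over all genes as well as hosts. Leaving out a library outside a step kept its medians and moved the counts called.

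Of the 8 genes that host the most abundant members, 7 had their highest mean level in priSG-A, and Phf21a had it in pacSC. This was also the general order: the median over expressed hosts was 12.4 and 12.2 FPKM in priSG-A, against 4.98 to 9.98 in the other libraries. Over all expressed genes it was 7.60 and 7.44, against 4.23 to 6.95. Among the 7, plpSC was not called lower than priSG-A for Cnot6l and Gigyf2 (adjusted p = 0.096 and 0.22, limma), and it was for the others. Levels are given as mean FPKM ± SD (n = 2). For Tmeff1 the priSG-A mean was 54.1 ± 2.33, the plpSC mean 13.3 ± 1.43, the pacSC mean 4.67 ± 0.759 and the rST mean 11.7 ± 1.01. For Cnot6l the priSG-A mean was 13.6 ± 0.419, the plpSC mean 8.94 ± 4.23, the pacSC mean 5.27 ± 0.0114 and the rST mean 9.13 ± 0.374. Rasa2 averaged 2.36 ± 0.798 in pacSC, against 14.8 ± 0.249 in priSG-A, and Rod1 averaged 7.12 ± 0.792 in pacSC, against 27.7 ± 0.352 in priSG-A. Among germline hosts, Dmrt1 averaged 4.22 ± 1.06 in rST, against 121 ± 3.9 in priSG-A, and Gfra1 averaged 0.443 ± 0.0454 in pacSC, against 6.46 ± 0.252 in priSG-A. Hosts of members absent from 1 group were also expressed: in priSG-A, Spopl averaged 7.59 ± 0.5 FPKM, Thap4 21.9 ± 0.791 FPKM, Strn3 36.9 ± 1.86 FPKM and Rnf219 5.86 ± 0.532 FPKM. Trim37 was higher later, at 209 ± 11.9 in pacSC, against 37.5 ± 1.77 in priSG-A. The summed FPKM of 5 Sertoli cell markers was 928 and 961 in the priSG-A libraries and 15.96 to 178 in the other germ cell libraries. Other marker lists also differed between libraries. The 5 Leydig cell markers summed to 831 in pacSC replicate 2 and 43.3 in pacSC replicate 1. The 6 round spermatid markers summed to 5141 in pacSC replicate 2 and 373 in pacSC replicate 1, so the 2 pacSC libraries differed from each other. These 6 markers also differed within other stages, at 144 and 18.1 in priSG-A and 934 and 396 in plpSC. The 4 erythroid markers summed to 197 and 405 in plpSC, against 11.1 and 10.1 in priSG-A and 1.01 and 1.45 in pacSC. Their part in the host levels was not tested.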

How the data were processed

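The 4 SSC libraries were deposited as circRNA lists with back-splice junction read counts, and the 8 germ cell libraries as FPKM per gene by the authors. Build mm9 and the tools BWA, TopHat2 2.0.6 and Cuffdiff are listed in the submitters' processing notes, with no step given for any of them. The circRNA type is the authors'. A host is a gene whose deposited mm9 locus contains the whole circRNA. Counts were tested as deposited with edgeR 4.0.16 (quasi-likelihood, TMM, all circRNAs in at least 2 of 4 libraries), with DESeq2 1.42.0 as an alternative. Library sizes were summed junction reads. Genes at 1 FPKM or above in 2 or more libraries were tested with limma 3.58.1 on log2(FPKM + 1). Scripts were tested on simulated data. Antisense and overlapping genes may share FPKM, since no strand is given. Members, lists and tests were chosen with earlier results of these data known. Named are the 8 members most abundant after RNase R in all 4 libraries, the 4 higher and 4 lower calls of smallest p, the 6 hosts of most members, the 3 hosts of most reads per list, the circRNAs nearest each span bound, and the 3 most abundant members of each group alone. No sequences are shown, because no mm9 genome was used here.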

Additional observations from a re-analysis of the deposited data

How the results depend on the processing

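Low junction read counts limit every statement on absence, since most members had under 10 reads and the lists hold almost no single reads. Requiring at least 5 junction reads left 7996 members. It moved the members' share of listed circRNAs to 48.3% after RNase R and 45.2% in untreated cells, the share in at least 2 libraries to 43.6% and the share in every library to 4.08%. Among exonic circRNAs alone, members were 60.9% of those listed after RNase R and 56.1% in untreated cells, and 59.0% and 54.8% of the reads. Leaving out 1 library gave 14.9 to 36.7% in at least 2 libraries and 5.29 to 9.86% in every library left. Members in at least 2 libraries had 2647 hosts, of which 5 hosted 10 or more, and the mean FPKM over the 4 stages gave a rho of 0.060.

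DESeq2 called 10 members higher (0.204%, beside 0.180% of all tested) and 36 lower (0.735%, beside 1.52%). With no filter there were 82 higher (0.625%, beside 0.577%) and 59 lower (0.450%, beside 1.30%). With at least 10 reads in 2 libraries there were 4 higher (0.192%, beside 0.172%) and 12 lower (0.577%, beside 1.20%). Totals gave 73 lower (1.49%, beside 2.92%). Leaving out 1 library gave 5 to 213 higher and 8 to 42 lower, with the lone library assumed to vary like the pair. Replicate numbers were not shown to pair the libraries (correlation of deviations 0.20 for the 2 SSC numbers, -0.31 to 0.38 between germ cell stages). The replicate block gave 34 members higher (0.694%, beside 0.621% of all tested) and 11 lower (0.225%, beside 0.591%), with 24 of the 54 calls kept. The Epb4.1l5 member, not called, turned to -0.068 with totals. With the block on the host levels, no count moved by over 1.5 times. Centring gave 348 hosts higher (7.79%, beside 9.62% of all genes) and 409 lower (9.16%, beside 8.78%) in pacSC against plpSC. Calls over all genes, as well as over hosts, moved when 1 library was left out. Leaving out 1 library gave 463 to 939 hosts higher and 1215 to 2435 lower in plpSC against priSG-A, 30 to 586 and 205 to 1892 in pacSC against plpSC, and 0 to 901 and 0 to 1481 in rST against pacSC. Where no construction shows it, the cause was not tested.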
